A study of Mus musculus with 16 samples.

Results

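This report follows 10 genes of the hepatic extracellular matrix through 16 mouse livers. They are the collagen chains Col1a1, Col1a2, Col3a1, Col4a1 and Col4a2, the matrix proteins Dcn and Sparc, the protease inhibitor Timp1, the contractile protein gene Acta2 and the retinoid enzyme gene Lrat. They were chosen by name as collagens and genes of hepatic stellate cells, and all 10 had 1 row each among the 15544 gene identifiers measured. Liver RNA was sequenced in bulk from females aged 27 weeks, with 1 library per mouse and 4 mice in each of 4 groups. All mice carried the floxed Esr1 allele, which encodes oestrogen receptor alpha. Control mice (Esr1fl/fl) had no Cre, and mutant mice (Esr1Nkx2-1Cre) carried a Cre driven by Nkx2-1 that removes the receptor in part of the hypothalamus. Nkx2-1 is also active in the developing lung and thyroid. Each genotype was kept on chow or on a high-fat diet (HFD) for 17 weeks, and the groups are called Control_Chow, Mutant_Chow, Control_HFD and Mutant_HFD. Libraries are numbered 1 to 4 within a group only to name them. The design asked whether the mutation altered the liver on either diet, whether the diet altered it in either genotype, and whether the effect of one depended on the other.

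Collagens are built from 3 chains wound together. The products of Col1a1 and Col1a2 join into type I collagen and that of Col3a1 forms type III, and both make the fibres of a scar. The products of Col4a1 and Col4a2 make the type IV network of basement membranes. In the healthy liver, stellate cells lie between hepatocytes and the sinusoids and store vitamin A as retinyl esters, which LRAT makes from retinol. In an injured liver they lose those stores, gain smooth muscle actin (ACTA2) and lay down fibrillar collagen, while TIMP1 blocks the proteases that would degrade it. Decorin (Dcn) is a small proteoglycan that coats collagen fibres, and SPARC is a glycoprotein that binds collagen. In bulk liver RNA, fewer stellate cells and less RNA per stellate cell cannot be told apart.

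Values are TPM, which counts the transcripts of a gene among all transcripts after correction for length, with size factors applied between libraries, so levels are per transcript length and can be set side by side between genes. Sequencing depth is not kept on this scale, so precision rests on how far the 4 mice of a group differed. Column totals ranged from 905897 to 1119703, and each library had 11834 to 12443 genes at a value of 1 or more. Differences were fitted with limma on log2(value + 1) over 12704 genes that reached 1 in at least 4 libraries, with p-values adjusted by the Benjamini-Hochberg method. Of the 10 genes, 9 were in that fit, and Timp1 was not, since it reached 1 in only 3 libraries. The livers carried the RNA of their named tissue. The 12 hepatocyte markers summed to between 69695 and 109590 in every library. All 27 markers of quiescent stellate cells were above 0 in every library, with sums of 317 to 506, led by Ecm1 at a mean of 155. The library titles ran in 4 number series, 2 on each diet, and what these numbers stand for was not stated. No series held both diets, so the effects of diet and of series cannot be told apart. With genotype in the fit, the 2 series on HFD differed at an adjusted p below 0.05 in 25.2% of all genes and the 2 on chow in 0%, and none of the 9 genes tested here was among the former.

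The genes stood in a wide order of levels. Dcn led with a mean of 127 over 16 livers (range 84.9 to 189.9), and 94.1% of all genes in the table had a lower mean. Sparc followed at 64.6 (43.0 to 87.1). Dcn was above Sparc in 16 of 16 livers, and Sparc above the next gene, Col4a1, in 16 of 16. The collagen chains were far lower, with means of 8.15 for Col4a1, 7.50 for Col3a1, 4.68 for Col4a2, 4.01 for Col1a2 and 1.55 for Col1a1. Lrat, at 5.33, stood among them, Acta2 had a mean of 2.29, and Timp1 was last at 0.890. Below Sparc the order was loose. Col4a1 exceeded Col3a1 in 10 of 16 livers, Col3a1 exceeded Lrat in 12, Lrat exceeded Col4a2 in 11 and Col4a2 exceeded Col1a2 in 10, and the ranges of these neighbours overlapped. Acta2 exceeded Col1a1 in 12 livers and Col1a1 exceeded Timp1 in 13. Within pairs the order was steadier: Col1a1 stood below Col1a2 in every liver, at a mean ratio of 0.39 ± 0.09 (SD, n = 16), although the type I protein holds more of the chain from Col1a1. Col3a1 stood above Col1a2 in every liver, at 1.87 ± 0.48 times its level.

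**Figure D1:**
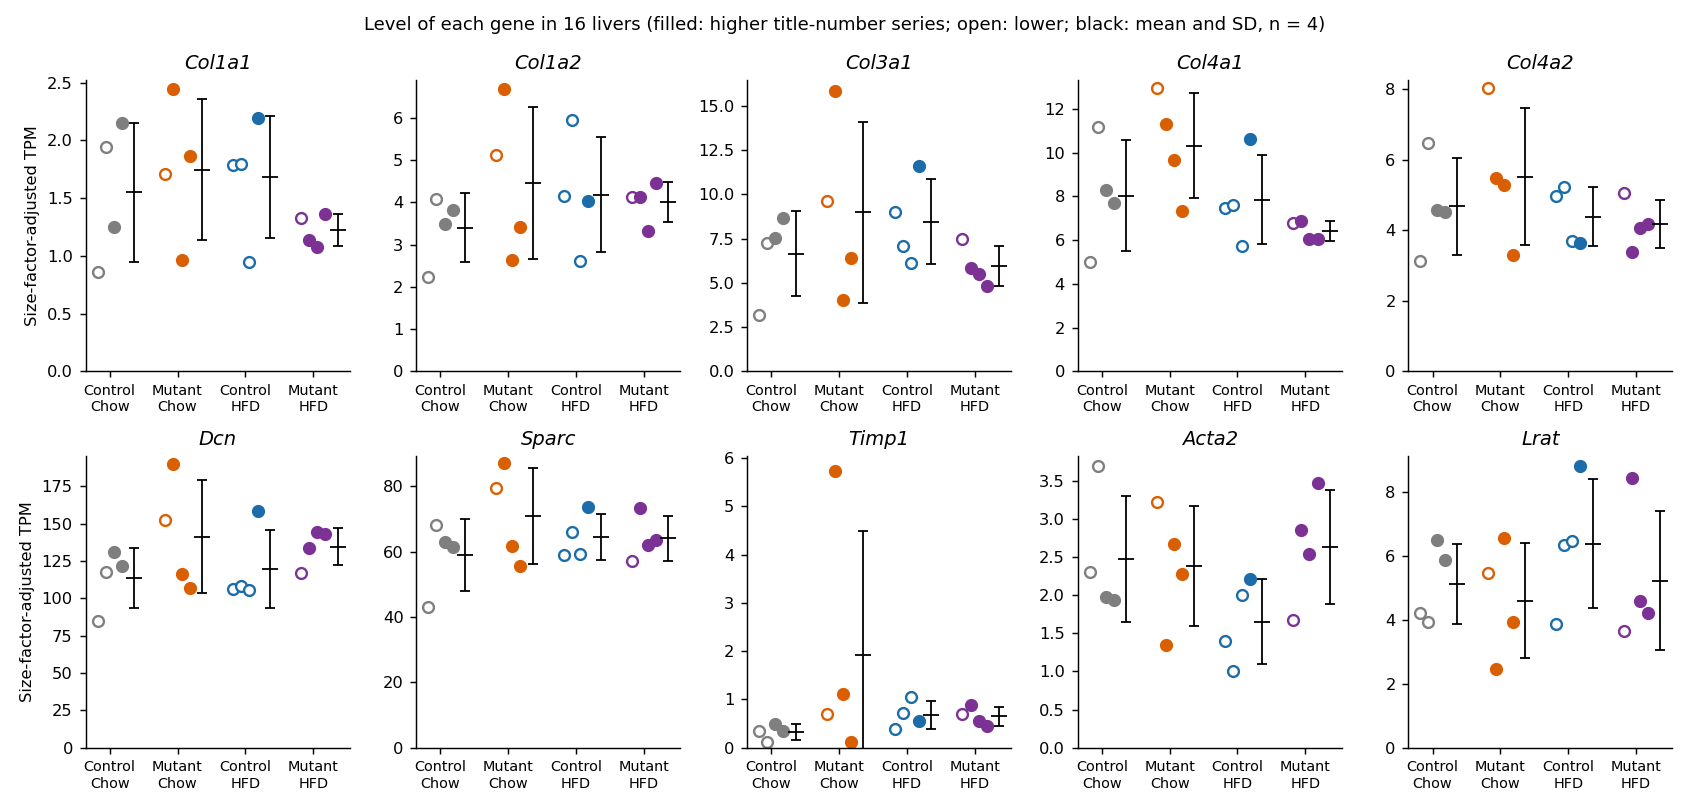
Level of each of the 10 genes in each of 16 livers, as size-factor-adjusted TPM on linear axes from 0, by group (n = 4), with filled points for the higher and open points for the lower title-number series of a diet and the group mean and SD in black (the lower SD bar of Timp1 in Mutant_Chow runs below 0 and is cut at the axis). The groups overlap in nearly every panel, and a Mutant_Chow liver is highest for Col1a1, Col1a2, Col3a1, Dcn, Sparc and Timp1, with Timp1 at 5.72.

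No gene of the 10 passed the adjusted threshold in any of the 5 comparisons. Between mutants and controls on chow 0.0236% of all 12704 genes passed it, between mutants and controls on HFD 0.0157%, and in each diet comparison and the interaction 0%. This fit thus made almost no calls for any gene, and some alternatives made many more (given at the end). At an unadjusted p below 0.05, mutants and controls differed in 6.08% of all genes on chow and in 8.6% on HFD. The diets differed at that p in 12.9% of genes in controls and 6.86% in mutants, and the interaction reached it in 4.21%. Against those shares 1 of the 9 tested genes reached it once, Col4a1 between the diets in mutants, and 0 did so in the other 4 comparisons. Groups that did not overlap at all were seen in 3.05%, 2.69%, 6.36% and 3.53% of all genes in the 4 comparisons of 2 groups, in that order, and among the 9 in 1 case, again Col4a1 between the diets in mutants. The median log2 difference over the 9 genes was 0.26 for mutants against controls on chow, where the median over all genes was 0.02. It was -0.05 for mutants against controls on HFD (all genes 0.02), 0.08 for HFD against chow in controls (-0.01) and -0.13 in mutants (-0.01), and for the interaction -0.27 (-0.01). The plot of differences with their intervals shows how wide each estimate was: the 95% interval of Col3a1 for genotype on chow ran from -0.39 to 1.00, which holds both no difference and a doubling.

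**Figure D2:**
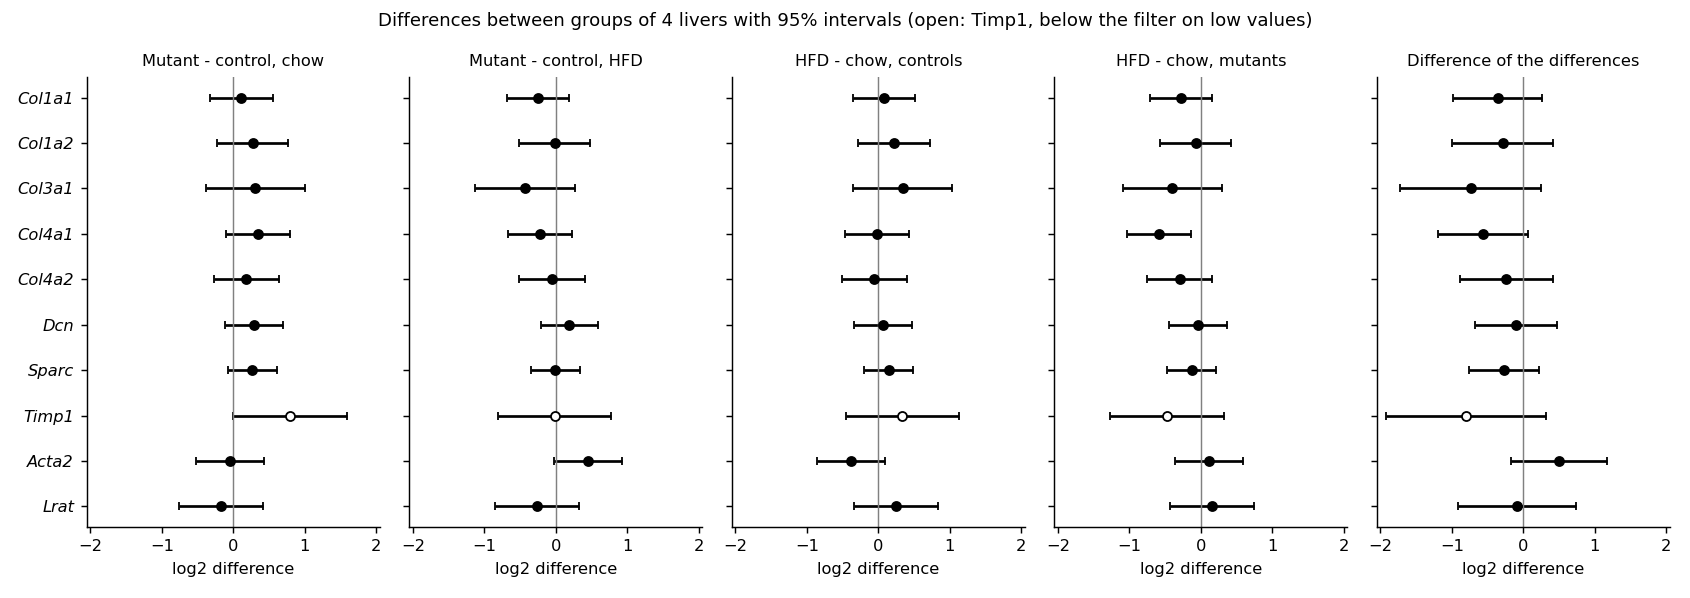
Log2 difference of each gene, with its 95% interval from limma, for mutant minus control on chow and on HFD, HFD minus chow in controls and in mutants, and the difference of those differences; the open points are Timp1, fitted without the filter on low values. Of the 50 intervals, that of Col4a1 for diet in mutants is the one that lies wholly to one side of 0 for a tested gene, at -0.58.

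The fibrillar collagens varied more within groups than between them. Col1a1 was 0.862, 1.94, 1.25 and 2.15 in Control_Chow 1 to 4 and 1.71, 2.45, 0.967 and 1.87 in Mutant_Chow. It was 1.79, 1.80, 0.948 and 2.20 in Control_HFD and 1.33, 1.14, 1.08 and 1.36 in Mutant_HFD. Control_Chow, Mutant_Chow and Control_HFD each spanned nearly the whole range of Col1a1, and Mutant_HFD was narrow and in its lower part. The log2 difference between mutants and controls was 0.11 (SE 0.21) on chow and -0.25 (SE 0.21) on HFD, with limma adjusted p = 0.996 and 0.689.

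Col1a2, the partner chain of type I collagen, was 2.23, 4.07, 3.48 and 3.81 in Control_Chow and 5.11, 6.68, 2.63 and 3.43 in Mutant_Chow. It was 4.15, 5.94, 2.61 and 4.03 in Control_HFD and 4.12, 4.13, 3.32 and 4.45 in Mutant_HFD. On chow 2 mutants stood above every control, and the other 2 lay within the control range. The difference was 0.27 (SE 0.23) on chow and -0.02 (SE 0.23) on HFD. The ratio of Col1a1 to Col1a2 was 0.45 ± 0.09, 0.40 ± 0.10 and 0.41 ± 0.10 (SD, n = 4) in Control_Chow, Mutant_Chow and Control_HFD and 0.31 ± 0.02 in Mutant_HFD, with overlapping values.

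Col3a1, the type III chain, had the widest swing of the collagens, 4.98 times between its lowest and highest liver. It was 3.18, 7.26, 7.51 and 8.64 in Control_Chow and 9.63, 15.8, 4.03 and 6.40 in Mutant_Chow. It was 9.02, 7.08, 6.13 and 11.6 in Control_HFD and 7.50, 5.84, 5.51 and 4.85 in Mutant_HFD. The highest liver was Mutant_Chow 2 and the lowest Control_Chow 1, and on HFD the control and mutant values overlapped between 6.13 and 7.50. The log2 difference was 0.31 (SE 0.33) for genotype on chow and -0.43 (SE 0.33) on HFD, and the interaction was -0.74 (SE 0.46, limma adjusted p = 0.895). Without Mutant_Chow 2 the difference on chow was 0.0088, and without Control_Chow 1 it was 0.040, so 2 livers carried the estimate.

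Col4a1 and Col4a2 lie head to head on chromosome 8 and are read in opposite directions, Col4a1 from the minus strand (chr8:11198423-11312826, GRCm38) and Col4a2 from the plus strand (chr8:11312805-11449287). Their annotated starts overlap by 22 bases, chr8:11312805-11312826, and the sequence of that overlap is given here because it is the piece of DNA the pair shares. It is written on the plus strand from the RefSeq promoter table of GRCm38.p6, with a GC box, GGGCGG, in capitals.
Col4a1 and Col4a2 start overlap: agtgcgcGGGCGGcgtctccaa
A GC box on either strand was in 35.7% of 32851 promoter windows of 300 bases, so its presence is common. Reads from these 22 bases cannot be assigned to 1 gene of the pair without strand, which is a small part of either transcript.

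Col4a1 was 4.999, 11.2, 8.27 and 7.71 in Control_Chow and 12.9, 11.3, 9.67 and 7.31 in Mutant_Chow. It was 7.45, 7.59, 5.72 and 10.6 in Control_HFD and 6.79, 6.86, 6.04 and 6.03 in Mutant_HFD. Every Mutant_HFD liver was below every Mutant_Chow liver, and the 4 Mutant_HFD values were the tightest of any group for this gene, with a mean of 6.43 ± 0.46 (SD, n = 4) against 10.3 ± 2.4 in Mutant_Chow. The log2 difference for diet in mutants was -0.58 (SE 0.21, 95% interval -1.03 to -0.13), with an unadjusted p of 0.0141 and a limma adjusted p of 0.623, so it did not pass. An exact two-sided permutation test over the 8 mutant livers gave p = 0.0286, the smallest that 4 against 4 allows. That value follows from the lack of overlap and adds nothing to it, and 3.53% of all genes lacked overlap in this comparison. In controls the same difference was -0.014 (SE 0.21), and the difference between the 2 differences was -0.57 (SE 0.30, unadjusted p = 0.0751, adjusted p = 0.895). Without Mutant_Chow 1 the difference in mutants was -0.47 with an unadjusted p of 0.0512.

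Col4a2 was 3.13, 6.46, 4.58 and 4.52 in Control_Chow and 8.02, 5.46, 5.27 and 3.30 in Mutant_Chow. It was 4.96, 5.23, 3.69 and 3.63 in Control_HFD and 5.06, 3.39, 4.05 and 4.17 in Mutant_HFD. The Mutant_Chow and Mutant_HFD values overlapped, unlike those of Col4a1, and the log2 difference for diet in mutants was -0.29 (SE 0.21, limma adjusted p = 0.849). Col4a1 was above Col4a2 in 16 of 16 livers, at a mean ratio of 1.77 ± 0.39 (SD, n = 16). Most livers had a ratio near the median of 1.66, and the highest was 2.92 in Control_HFD 4, where Col4a1 was 10.6 and Col4a2 3.63.

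Dcn was 84.9, 118, 131 and 122 in Control_Chow and 152, 189.9, 116 and 107 in Mutant_Chow. It was 106, 108, 105 and 159 in Control_HFD and 117, 134, 144 and 143 in Mutant_HFD. Control_HFD 4 stood far above the other 3 livers of its group, which were close to one another. On HFD the 4 livers of the lower title series, 3 controls and 1 mutant, were at 105 to 117. The 4 of the higher series, 1 control and 3 mutants, were at 134 to 159. How many of all genes separated by series in this way was not counted. Each series held only 1 liver of 1 of the genotypes, so series and genotype are hard to tell apart here. The log2 difference between series on HFD, with genotype in the fit, was 0.41 (SE 0.20, limma adjusted p = 0.140). The genotype difference on HFD was 0.19 (SE 0.19) without the series in the fit and -0.02 with it, and on chow it was 0.29 (SE 0.19, adjusted p = 0.902).

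Sparc was 43.0, 68.3, 63.0 and 61.3 in Control_Chow and 79.4, 87.1, 61.8 and 55.5 in Mutant_Chow. It was 58.9, 66.2, 59.4 and 73.9 in Control_HFD and 57.3, 73.5, 61.9 and 63.6 in Mutant_HFD. The HFD groups lay over each other almost completely, and on chow 2 mutant livers stood above every control and the other 2 within their range. The estimate for Sparc was the most precise of the 9, at 0.26 (SE 0.16) for genotype on chow and -0.011 (95% interval -0.35 to 0.33) for genotype on HFD. Dcn and Sparc kept to a narrow ratio of 1.97 ± 0.20 (SD, n = 16), with group means between 1.84 and 2.11.

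Timp1 had the widest range of the 10 genes, 51.8 times. It was 0.349, 0.110, 0.495 and 0.340 in Control_Chow and 0.700, 5.72, 1.12 and 0.112 in Mutant_Chow. It was 0.382, 0.725, 1.05 and 0.552 in Control_HFD and 0.705, 0.884, 0.554 and 0.449 in Mutant_HFD. Mutant_Chow 2 was the one liver above 2, and without it no group stood clear of the others. Timp1 lies within the neuronal gene Syn1 on the opposite strand with no shared exon, and Syn1 had a mean of 0.546. In a fit without the filter on low values, the log2 difference for genotype on chow was 0.79 (SE 0.37, limma adjusted p = 0.736), and it was 0.27 without Mutant_Chow 2. Mutant_Chow 2 also had the highest levels of the acute phase genes, most of which encode plasma proteins that hepatocytes make in inflammation. The 21 genes of that list summed to 131433 in this liver, 34784 in Mutant_Chow 1, 18764 and 19463 in the other 2 Mutant_Chow livers and 14961 to 18611 in Control_Chow. Saa1, a serum amyloid A gene chosen after its values were seen, was at 20634 in Mutant_Chow 2 and 22.1 to 385 in the other Mutant_Chow livers. None of the 21 acute phase genes was at 0 in any library. The part of inflammation in the Timp1 value was not tested.

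Acta2 was 2.31, 3.69, 1.98 and 1.94 in Control_Chow and 3.23, 1.35, 2.67 and 2.28 in Mutant_Chow. It was 1.40, 1.00, 2.003 and 2.21 in Control_HFD and 1.68, 2.85, 2.53 and 3.48 in Mutant_HFD. On HFD, 3 of the 4 mutants were above all controls and Mutant_HFD 1 lay among them. The log2 difference there was 0.45 (SE 0.22, 95% interval -0.021 to 0.93, unadjusted p = 0.0598, limma adjusted p = 0.578), the nearest to a call of the 9 genes in that comparison. It was 0.66 with an adjusted p of 0.0123 when libraries were weighted by how closely they followed their group, which gave Control_HFD 4 a weight of 0.228 and Mutant_HFD 1 a weight of 0.329. These are the 1 control of the higher title series and the 1 mutant of the lower on HFD. With those weights genotype and series can hardly be told apart. Under them 30.9% of all 12704 genes passed in that comparison, and 1 of the 9 genes tested here, a smaller share than the background. The log2 difference of Acta2 was 0.21 with the title series in the fit. The HFD values of Acta2 were at 1.00 to 2.003 in the lower title series and 2.21 to 3.48 in the higher. The log2 difference between the series was 0.48 (SE 0.20, limma adjusted p = 0.0972) and did not pass, where 25.2% of all genes did. How many of all genes separated by series in this way was not counted. Acta2 shares much of its sequence with the other actin genes, and the estimation splits such reads among them. Acta2 also marks the smooth muscle of vessel walls. The 15 genes of the smooth muscle list, 13 of which had a row, summed to 106 to 121 in Control_HFD and 112 to 123 in Mutant_HFD, led by Tpm1 at a mean of 27.8, and the defining marker Myh11 had a mean of 0.51. Of the 8 genes of that list tested, 0 had an unadjusted p below 0.05 for genotype on HFD.

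Lrat was 4.20, 3.94, 6.50 and 5.88 in Control_Chow and 5.47, 2.45, 6.56 and 3.93 in Mutant_Chow. It was 3.87, 6.35, 6.47 and 8.80 in Control_HFD and 3.65, 8.42, 4.58 and 4.23 in Mutant_HFD. All 4 groups overlapped. The log2 difference for genotype was -0.17 (SE 0.28) on chow and -0.26 (SE 0.28) on HFD, and for diet 0.25 in controls and 0.15 in mutants, with limma adjusted p from 0.720 to 0.996. Lrat was lowest in Mutant_Chow 2, the liver in which 6 of the other 9 genes were highest.

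Timp1 and Lrat thus moved furthest apart in 1 liver, and the 100 bases before their starts are shown for that reason, on the strand of each gene and from the RefSeq promoter table (GRCm38.p6). They lie at chrX:20870066-20870165 and chr3:82903975-82904074. Capitals mark a GC box read from the other strand (CCGCCC) in both and, in Lrat, the box CCAAT.
Timp1: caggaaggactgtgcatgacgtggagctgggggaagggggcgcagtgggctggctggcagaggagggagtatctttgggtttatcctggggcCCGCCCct
Lrat: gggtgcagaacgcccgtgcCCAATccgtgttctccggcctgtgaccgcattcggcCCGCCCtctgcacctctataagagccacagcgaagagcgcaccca
CCAAT on either strand was in 37.4% of all windows. The letters of an AP-1 site (TGANTCA, 7.81% of windows) and of a strict CArG box (CCWWWWWWGG with W for A or T, 1.63%) were not in the windows of the 8 genes that had one in the table. Looser forms of the CArG box were not searched. For Col1a2, Sparc and Acta2 the 100 bases before the start used overlap annotated exons of the same gene. Their windows can therefore miss the sequence before another start. These are matches of letters and no measure of binding.

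Read by liver instead of by gene, the values fell into a few high and low livers. Control_Chow 1 was the lowest of 16 for 7 genes, namely Dcn, Sparc and the 5 collagen chains, and the median over all 10 genes relative to each gene's mean was -0.49 on the log2 scale. Mutant_Chow 2 was the highest for Dcn, Sparc, Col3a1, Col1a2, Col1a1 and Timp1. Mutant_Chow 1 was the highest for Col4a1 and Col4a2 and above the mean for 10 of 10 genes. Both other Mutant_Chow livers were closer to the middle, with medians of 0.064 and -0.17. The SD of Mutant_Chow was also the largest of the 4 groups for Col1a1, Col1a2, Col3a1, Col4a2, Dcn, Sparc and Timp1, and that of Mutant_HFD the smallest for 7 of the 10 genes. As a percentage of the mean, the SD of Col1a1 was larger in Control_Chow (38.7%) than in Mutant_Chow (34.9%). The same order of spreads was not counted over all genes.

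**Figure D3:**
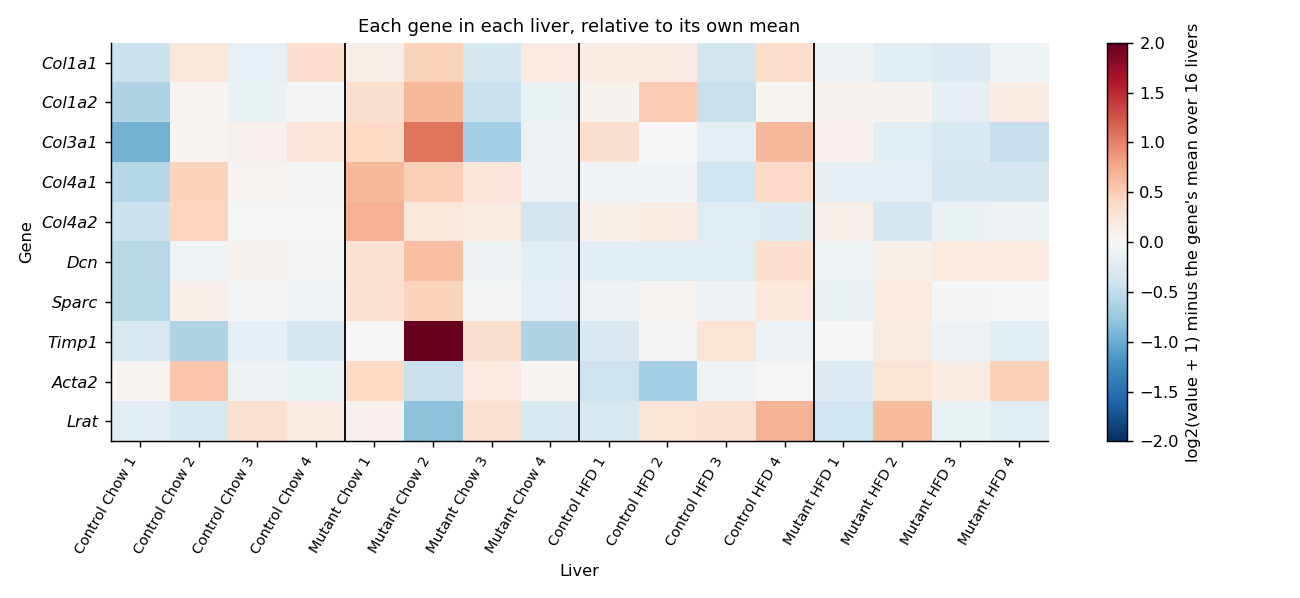
Each gene (rows) in each of 16 livers (columns, by group), as log2(value + 1) minus the gene's own mean over 16 livers, red above and blue below. Control_Chow 1 is blue for all 5 collagens, Dcn and Sparc, and Mutant_Chow 2 is red for 8 of 10 genes and blue for Lrat and Acta2.

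The collagens, Dcn and Sparc varied together across the 16 livers, and Lrat and Acta2 did not vary with them. All 21 pairs among the 5 collagen chains, Dcn and Sparc had a positive Pearson's r, with a median of 0.63 and a range from 0.32 to 0.86, and the median was 0.68 once group means were removed. The 9 pairs with Lrat had a median r of -0.16 and those with Acta2 0.05. All values of a liver share 1 library. The 21 pairs were not recomputed without Mutant_Chow 2 and Control_Chow 1, the highest and lowest livers for most of these genes. Against Col1a1, 9 relations were tested with permutation tests (n = 16, adjusted over the 9). Col3a1 followed it most closely, with r = 0.83 (permutation p = 3e-05, adjusted 0.00027) and Spearman's rho = 0.76 (adjusted p = 0.0104). Without the 2 livers farthest from the median of Col1a1, Mutant_Chow 2 and Control_Chow 1, r was 0.74.

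Col1a2 followed with r = 0.72 (permutation p = 0.00134, adjusted 0.00603) and rho = 0.59 (adjusted p = 0.0513), and r was 0.55 without those 2 livers. Col4a1 had r = 0.63 (permutation p = 0.00949, adjusted 0.0285), rho = 0.65 (adjusted p = 0.0359) and r = 0.47 without them. Sparc had r = 0.56 (permutation p = 0.0218, adjusted 0.0491), rho = 0.45 (adjusted p = 0.163) and r = 0.21 without them, so its relation rested on those 2 livers. Dcn (r = 0.46, permutation adjusted p = 0.125) and Col4a2 (r = 0.36, 0.25) did not pass, and without those 2 livers their r was 0.063 and 0.19. For Lrat r was -0.24 and for Acta2 -0.27, with permutation adjusted p of 0.41 and 0.40, and for Timp1 it was 0.17 in all livers and -0.53 without Mutant_Chow 2. Without those 2 livers r was -0.12 for Lrat, -0.15 for Acta2 and -0.68 for Timp1, whose values were low. For Lrat it was -0.012 without Mutant_Chow 2. Within groups and title series, after both were removed, r with Col1a1 was 0.82 for Col3a1 and 0.83 for Col1a2.

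**Figure D4:**
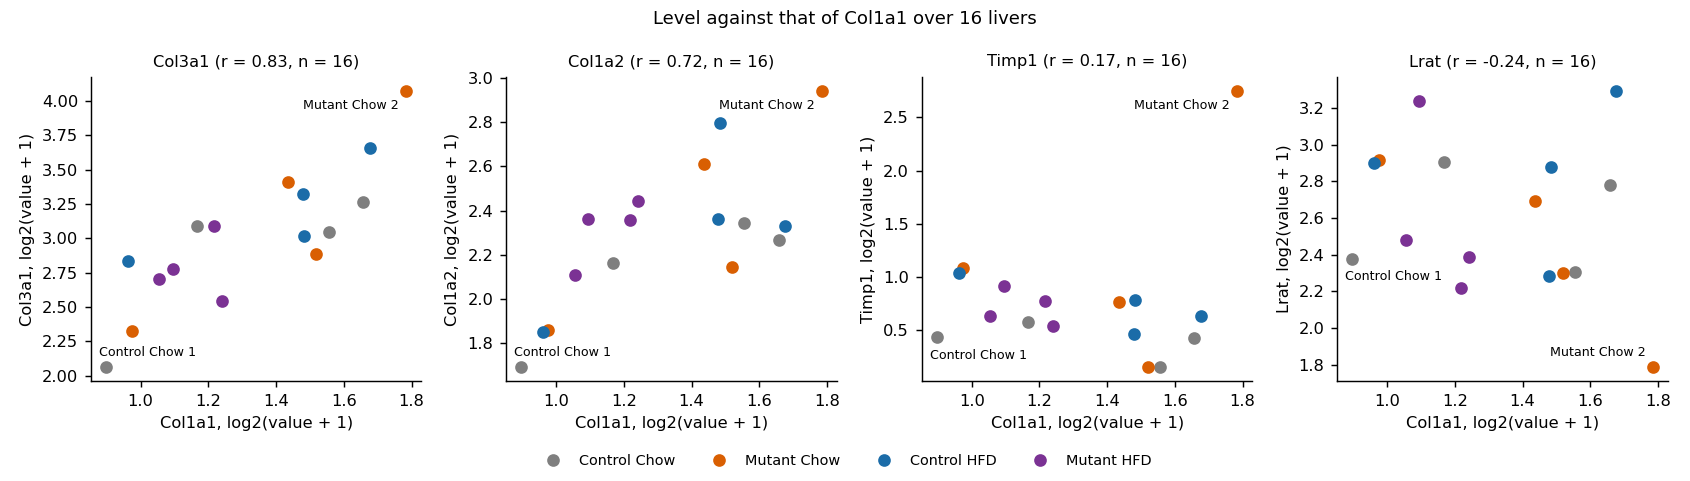
Level of Col3a1, Col1a2, Timp1 and Lrat (y axes) against Col1a1 (x axis), all as log2(value + 1), in 16 livers coloured by group. Col3a1 (r = 0.83) and Col1a2 (r = 0.72) climb with Col1a1 from Control_Chow 1 to Mutant_Chow 2, while the point of Mutant_Chow 2 alone sets Timp1 (r = 0.17) and Lrat has no such slope (r = -0.24).

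Among all 12704 genes tested, the 10 with the highest r with Col1a1 over the 16 livers were Col3a1, Il18, Gdpd5, Panx1, Crtap, BC035044, Il18bp, Cd86, Clec4n and Nelfb, with r from 0.76 to 0.83. Crtap, at r = 0.79 and a mean of 12.1, encodes a part of the complex that hydroxylates prolines of fibrillar collagen. Il18 encodes an inflammatory cytokine and Il18bp the protein that binds it, and Cd86 and Clec4n encode surface proteins of macrophages and dendritic cells. Without Mutant_Chow 2 and Control_Chow 1 the 10 values of r were between 0.63 and 0.75. Dcn had closer neighbours, a list made after its values were seen: they were led by Cd300ld3 (r = 0.95) and held Bgn (r = 0.89), which encodes biglycan, the proteoglycan most like decorin.

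The wider matrix and stellate cell genes were read from lists chosen with earlier results of these data known, so the shares given for all lists are descriptive. No gene of any list passed the adjusted threshold in any comparison, in limma with adjustment over all genes. Among 18 other collagen chains tested of 39, 2 had an unadjusted p below 0.05 and were higher in mutants on chow. The clearer was Col4a3, a type IV chain of a separate network, at 0.606, 0.178, 0.420 and 0.799 in Control_Chow and 1.67, 1.73, 2.44 and 1.74 in Mutant_Chow. Those groups did not overlap, with a log2 difference of 0.96 (SE 0.19, unadjusted p = 0.000135, adjusted p = 0.246). On HFD the difference for Col4a3 was 0.57 (SE 0.19, adjusted p = 0.527), with controls at 0.150 to 0.447 and mutants at 0.416 to 1.53. In mutants the HFD values of Col4a3 also lay below the chow values without overlap, at a log2 difference of -0.56 (SE 0.19, adjusted p = 0.623). Every control liver was below 1 for Col4a3, so it passed the filter on low values only through mutant livers. Its differences and lack of overlap are thus partly set by that filter, and its values are low. On HFD the best of the other chains was Col27a1, at -0.82 (SE 0.26, adjusted p = 0.527).

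Of 21 tested genes that process and crosslink collagen, 1 was higher and 0 lower on chow in mutants at an unadjusted p below 0.05, Pcolce2 (0.54, SE 0.22), which enhances the trimming of procollagen. Pcolce2 was lower on HFD than on chow in mutants (-0.70, SE 0.22, limma adjusted p = 0.622). For diet in controls, P4ha2, a collagen prolyl hydroxylase, was the 1 gene at an unadjusted p below 0.05 (0.61, SE 0.21, adjusted p = 0.262), without overlap of the groups. Among 15 matrix proteases and inhibitors, the macrophage elastase Mmp12 was higher on HFD in controls (0.97, SE 0.35) and in mutants (1.09, SE 0.35), with adjusted p of 0.280 and 0.623. Mmp9, a gelatinase, was at 16.3, 33.2, 0.123 and 1.41 in Mutant_Chow and 0.0865 to 0.556 in Control_Chow (log2 difference 2.36, SE 0.75, adjusted p = 0.677). Its 2 high values were in Mutant_Chow 1 and 2, the livers with the highest macrophage and acute phase sums on chow, and Mutant_Chow 3 lay within the controls.

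Of 28 proteoglycans and glycoproteins, 2 were higher and 1 lower on chow in mutants at an unadjusted p below 0.05, and the lowest p was that of Ltbp4, which binds latent TGF-beta (-0.51, SE 0.16). On HFD 2 were higher in mutants, led by Mgp, an inhibitor of calcification (0.67, SE 0.27, limma adjusted p = 0.560). Of 13 basement membrane genes, 1 was higher and 1 lower on chow, the latter the laminin chain Lamb3 (-1.89, SE 0.49, adjusted p = 0.548), which in mutants was higher on HFD (1.44, SE 0.49). Of 8 collagen receptors, 1 was higher on chow, the integrin chain Itgb5 (0.23, SE 0.11), and 1 lower on HFD, the collagen-sensing kinase Ddr2 (-0.59, SE 0.24). Of 21 TGF-beta and PDGF genes 1 was higher on chow, the inhibitory Smad6 (0.54, SE 0.16, adjusted p = 0.636), and 0 reached that p on HFD. The shares of these 7 lists at that p lay between 4.76% and 15.4% on chow and between 0% and 12.5% on HFD, against 6.08% and 8.6% of all genes.

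Markers of stellate cells were read in the same way. Of 24 quiescent stellate cell markers tested, 2 were higher and 0 lower in mutants on chow at an unadjusted p below 0.05, led by the extracellular superoxide dismutase gene Sod3 (0.56, SE 0.19, limma adjusted p = 0.729). On HFD 1 was higher, the pericyte gene Rgs5 (0.55, SE 0.23), and the median over the list was 0.00 on chow and 0.08 on HFD. Of 12 activated stellate cell markers tested, which include Acta2, 1 was higher on chow, S100a6 (1.55, SE 0.60), and 2 on HFD, with medians of 0.17 and 0.27. On chow the share at that p was 8.33% in both lists, against 6.08% of all genes. On HFD it was 4.17% of the quiescent and 16.7% of the activated markers, against 8.6% of all genes. The 18 activated markers with a row summed to 49.1 to 72.5 in Control_Chow, to 113 and 159 in Mutant_Chow 1 and 2 and to 55.4 and 57.0 in the other 2. They summed to 48.1 to 60.5 in Control_HFD and 55.2 to 69.3 in Mutant_HFD. Vim, which many cell types besides stellate cells express, led that list at a mean of 20.6 and was lower on HFD in mutants (-0.87, SE 0.31, adjusted p = 0.623).

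Of 21 tested genes of retinoid storage and use, 4 were lower and 2 higher in mutants on HFD at that p, or 28.6% against 8.6% of all genes, and for diet in controls 4 were higher and 2 lower, or 28.6% against 12.9%. Both shares rest on the same Control_HFD livers, most of them of the lower title series. On HFD the list summed to 7375 to 9488 in the lower series and 6469 to 7844 in the higher. Series is hard to tell apart from genotype here, and cannot be told apart from diet. The lowest p for those 2 comparisons belonged to Bco1, which cleaves beta-carotene (0.40, SE 0.15, limma adjusted p = 0.548), and to Dgat1, which also esterifies retinol (0.50, SE 0.14, adjusted p = 0.212). Of 9 portal fibroblast markers, 2 were higher in mutants than in controls on chow, or 22.2% against 6.08% of all genes, led by Cd34 (0.74, SE 0.25). Between the diets in mutants 3 were lower on HFD, or 33.3% against 6.86%, and between genotypes on HFD 0 reached that p. The list summed to 275 in Mutant_Chow 2 and to 91.5 to 166 in all other livers.

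Markers of other cells were also high or low in some of the livers that stood apart. The 20 macrophage markers summed to 1225 and 1636 in Mutant_Chow 1 and 2, where 10 and 8 of the 10 genes stood above their means, and to 286 in Control_Chow 1, where 1 did. They ranged from 435 to 937 in the remaining 13 livers. Control_HFD 4, where 8 of the 10 genes were above their means, had a macrophage sum of 534. Control_HFD 2 and Control_Chow 4, at sums of 937 and 831, had 7 and 3 of the 10 genes above their means. Their medians over the 10 genes were 0.040 and -0.027. The relation of the macrophage sum to the 10 genes over all livers was not tested. On chow 5 of 18 macrophage markers tested and 10 of 21 acute phase genes were higher in mutants at an unadjusted p below 0.05 and 0 lower, or 27.8% and 47.6% against 6.08% of all genes, with medians of 0.67 and 1.05. The sums of both lists were highest in Mutant_Chow 1 and 2. Mutant_Chow 3 and 4 had macrophage sums of 456 and 628, within Control_Chow at 286 to 831. Their acute phase sums of 19463 and 18764 were just above Control_Chow at 14961 to 18611, against 34784 and 131433 in Mutant_Chow 1 and 2. For diet in mutants, which uses the same Mutant_Chow livers, 10 of 21 acute phase genes were lower, or 47.6% against 6.86% of all genes, with a median of -1.01. The 12 lymphocyte markers summed to 9.1 to 30.4 in Control_Chow and 10.5 to 47.6 in Mutant_Chow, and the 7 mesothelial markers with a row to 14.2 in Mutant_Chow 2 and 2.8 to 6.5 elsewhere. The 19 endothelial markers summed to 295 in Control_Chow 1 and to 351 to 480 in the other livers, and 0 of 19 had an unadjusted p below 0.05 for genotype on chow. The part of these cells in the collagen values was not tested.

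**Figure D5:**
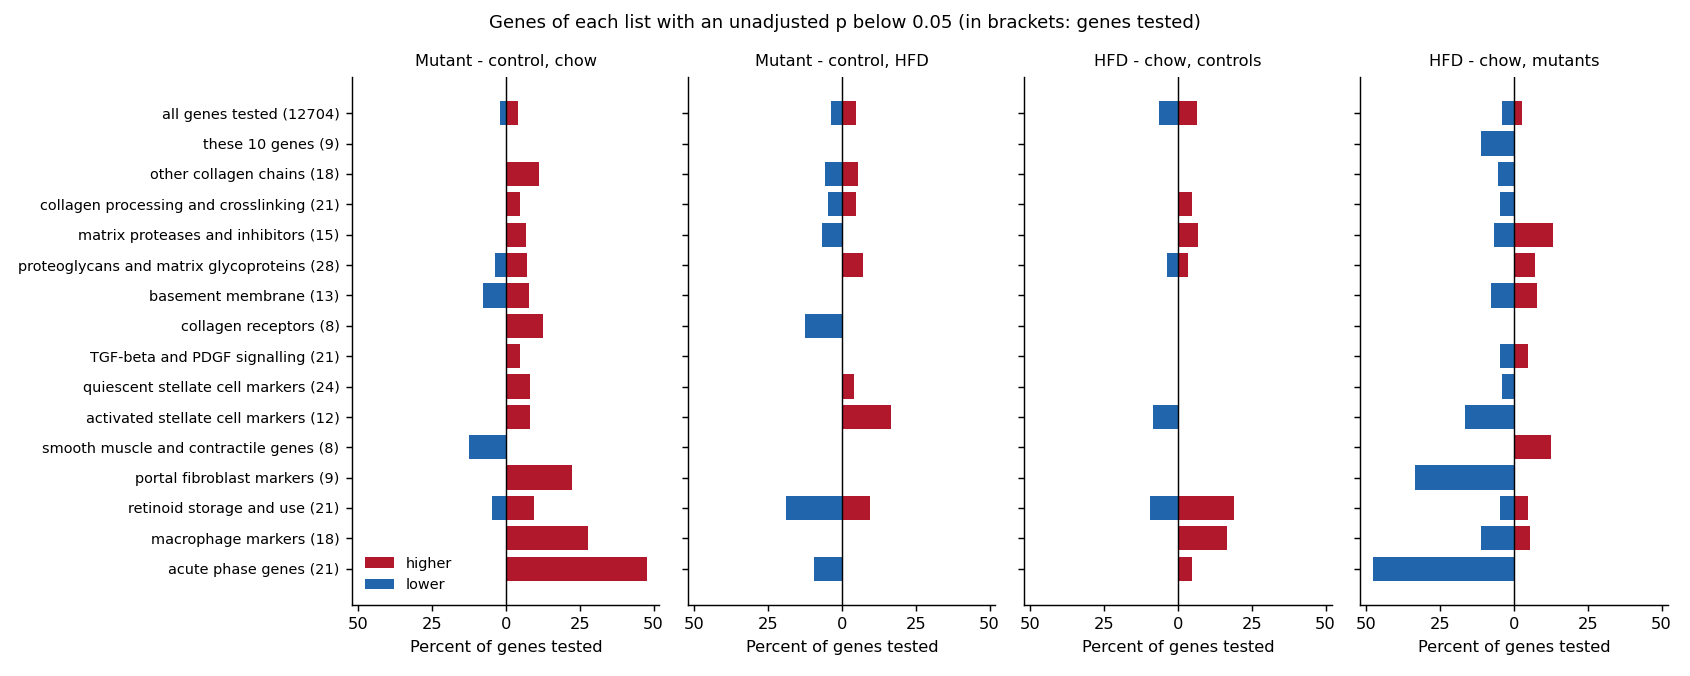
Percent of the genes tested in each list that had an unadjusted p below 0.05, higher to the right in red and lower to the left in blue, for 4 comparisons between groups of 4 livers; the top bar is all 12704 genes and numbers in brackets are genes tested. The 9 genes tested of the 10 described have no bar except 11.1% lower for HFD against chow in mutants, which is Col4a1, while the acute phase genes reach 47.6% on chow and in mutants on HFD.

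The remaining lists held few genes. Of 12 hepatocyte markers 0 were at an unadjusted p below 0.05 for genotype on chow and 1 on HFD, Serpina1a (0.41, SE 0.14). Between the diets 1 of the 12 was lower in controls, and in mutants 1 was higher and 2 lower, or 25% against 6.86% of all genes. Of 8 bile duct markers 1 was higher on chow in mutants, Cdh1 (0.71, SE 0.30), and 1 on HFD in controls, Krt23. Each was 12.5% of the list, against 6.08% and 12.9% of all genes. The adipose list had rows for 4 of 8 genes, and the defining markers Adipoq, Lep and Retn had none. Of its 3 genes tested, 2 were higher on HFD in controls, including Cd36 (0.42, SE 0.18), or 66.7% against 12.9% of all genes. The 7 red cell markers summed to 1623 to 6922, and 0 of the 5 tested reached that p in any comparison.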

How the data were processed

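Livers of 16 female mice in 4 groups of 4 were grouped by the genotype and treatment labels. Libraries were prepared with the NEBNext Ultra II kit and run on a NovaSeq, and the authors assigned reads to mm10 transcripts with kallisto and used sleuth for values per gene, with versions not given in the sources used here. The deposited signal of each gene is on the TPM scale with size factors applied between libraries, a unit inferred from the values. Because depth is unknown, no counting interval was given, and no count test was run.

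Genes at 1 or more in at least 4 libraries were fitted with limma 3.58.1 (trend, R 4.3.3) on log2(value + 1), with 4 group means and 5 contrasts. A fold on this scale understates the change of low genes. P-values were adjusted by the Benjamini-Hochberg method at 0.05, and the fit was tested on simulated data. Correlations used 100000 permutations (SciPy 1.17.1). Positions are from GENCODE M21 on GRCm38, and sequences from RefSeq, which matched 8 of the 10 genes.

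The 10 genes and the lists were chosen with earlier results of these data known. The lists were other collagen chains, collagen processing and crosslinking, matrix proteases and inhibitors, proteoglycans and glycoproteins, basement membrane, collagen receptors, TGF-beta and PDGF signalling, and markers of quiescent and activated stellate cells, smooth muscle, portal fibroblasts, retinoid use, endothelium, macrophages, bile ducts, mesothelium, hepatocytes, lymphocytes, fat, red cells and the acute phase. All 10 genes were described, and from each list the gene with the lowest p in a comparison was named, besides the 10 genes most like Col1a1. The comparison of title series was added after the data were seen. Alternatives were other scalings, filters and pseudocounts, library weights, the title series as a term, fits of only the groups compared, and leaving out each library.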

Additional observations from a re-analysis of the deposited data

Results flagged for a closer look

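Dcn in Control_HFD 4 was at 158.7, against 105 to 108 in the other 3 Control_HFD livers. Its gap to the nearest of them was 0.943 of the whole range of the group, above Dixon's 95% critical value for 4 samples. Of 40 sets of 4 livers examined (10 genes in 4 groups) this was the 1 flagged, and chance flags about 1 in 20. Control_HFD 4 is also the one control of the higher title series on HFD, whose 3 mutants had Dcn at 134 to 144. Liver and series cannot be told apart within the controls.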

How the results depend on the processing

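Of the 50 differences of the 10 genes, 30 kept their sign under every alternative and 20 did not, and the adjusted threshold was passed once, for Acta2 on HFD. With library weights 1 of the 9 genes tested passed for genotype on HFD, against 0 otherwise, while 3926 of all 12704 genes (30.9%) passed there, against 2 without weights. The weights were lowest for Control_HFD 4 and Mutant_HFD 1, so genotype and title series can hardly be told apart in that weighted comparison. Scaling to equal library totals moved the median of all genes by -0.15 for diet in controls and by 0.14 for the interaction. Under it the sign turned for genotype on HFD in Col1a2 (0.049), Col4a2 (0.013) and Sparc (0.071), for diet in controls in Col1a1 (-0.021), Dcn (-0.11) and Sparc (-0.027), and for the interaction in Dcn (0.060) and Lrat (0.045). Relative to the shifted median, diet in controls was 0.13 for Col1a1, 0.049 for Dcn and 0.13 for Sparc, and the interaction -0.069 for Dcn and -0.084 for Lrat. Median-of-ratios size factors turned Col4a1 for diet in controls (0.0018). Library weights turned genotype on chow in Col3a1 (-0.0067) and Acta2 (0.033), genotype on HFD in Sparc (0.056), diet in controls in Dcn (-0.068), diet in mutants in Col1a2 (0.099), Dcn (0.17) and Sparc (0.032), and the interaction in Dcn (0.24). The title series as a term turned Acta2 on chow (0.063) and, for genotype on HFD, Col4a2 (0.093) and Dcn (-0.020). Its interaction for Col4a1 was -0.72 (unadjusted p = 0.0470). The cause was not tested.

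Leaving out 1 library at a time, genotype on chow ranged from -0.17 to 0.12 for Acta2, -0.031 to 0.26 for Col1a1 and -0.33 to 0.045 for Lrat. Genotype on HFD ranged from -0.18 to 0.14 for Col1a2, -0.13 to 0.021 for Col4a2 and -0.078 to 0.055 for Sparc. Diet in controls ranged from -0.060 to 0.23 for Col1a1, -0.20 to 0.14 for Col4a1, -0.20 to 0.084 for Col4a2 and -0.076 to 0.14 for Dcn. Diet in mutants ranged from -0.052 to 0.25 for Acta2, -0.25 to 0.11 for Col1a2, -0.16 to 0.12 for Dcn and -0.064 to 0.32 for Lrat, and the interaction from -0.22 to 0.050 for Dcn and -0.31 to 0.073 for Lrat. The correlation with Col1a1 ranged from 0.56 to 0.75 for Col4a1, 0.42 to 0.64 for Sparc and -0.53 to 0.24 for Timp1. That of Timp1 was -0.00061 at a pseudocount of 0.1, and that of Sparc 0.52 (adjusted permutation p = 0.0778) with median-of-ratios size factors. Apart from Acta2 with library weights, 0 of the genes described here passed in any alternative. Among all genes tested, many more passed in some of them. For diet in controls 2264 genes (17.8%) passed with library weights and 928 (7.33%) without Control_HFD 4. For genotype on HFD 141 (1.11%) passed without Mutant_HFD 1. Besides these and the weighted genotype comparison on HFD, no alternative had more than 14 genes passing in a comparison. No paired analysis was possible because the labels give no replicate numbers.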
